A study of Mus musculus with 6 samples.

Results

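The genes described here are 10 core genes of the hedgehog pathway: the ligand Shh, the receptors Ptch1 and Smo, the co-receptors Cdon, Boc and Gas1, the ligand-binding inhibitor Hhip, and the transcription factors Gli1, Gli2 and Gli3. They were chosen by name, though with earlier results of these data known. All 10 had at least 1 probe that the array annotation assigns to 1 gene symbol. Together they had 19 probes, out of 34885 such probes for 19057 genes. A gene's brightest probe on average over the arrays is called its main probe here, and its other probes are given beside it.

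RNA of outbred CD-1 embryos of embryonic day 13.5 was measured on 6 Illumina bead arrays of 1 colour. The titles name 3 libraries of lower molar tooth germ and 3 of oral tissue from the mandible, described as without tooth and bone. No transgene, mutation or treatment is named for either tissue. Each library pooled tissue of several mice, and libraries of the same number came from the same litter, so the 6 libraries form 3 pairs. With 3 arrays per tissue, precision is limited by their number.

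The sample labels are at odds over the identity of the libraries: the 3 that titles and descriptions call tooth germ are oral tissue in the source name and tissue fields, and the reverse. Titles are followed here. Should the other fields be correct, each difference given here has the opposite sign. Msx1, a homeobox gene of dental mesenchyme, averaged 12.56 ± 0.17 on the log2 scale in titled tooth germ, and 11.09 ± 0.31 in the other group (SD, n = 3), and the myogenic factor Myod1 averaged 7.49 ± 0.031 against 8.97 ± 0.23 (SD, n = 3).

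Hedgehog proteins are secreted lipid-modified signals. In their absence Ptch1 holds the membrane protein Smo inactive. Binding of the ligand to Ptch1, helped by Cdon, Boc or Gas1, frees Smo to act at the primary cilium, where it changes the balance of Gli activators and repressors. Ptch1, Gli1 and Hhip are themselves transcribed in response to the signal, and Ptch1 and Hhip limit its range. In the developing tooth Shh is made by the dental epithelium and is received by epithelium and by the mesenchyme around it.

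Shh, Ptch1 and Gli3 were higher and Cdon was lower in the libraries titled tooth germ. Smo, Gli1, Gli2, Hhip, Boc and Gas1 did not pass the test. The test was limma over 19057 genes with Benjamini-Hochberg adjustment, with calls made below an adjusted p of 0.05. It called 4 of the 10 genes, beside 5.81% of all genes; 3 were higher, beside 2.39% of all genes, and 1 was lower, beside 3.42%. The median log2 difference of the 10 genes was 0.11, and that of all genes was 0.0026. The same 4 genes were called with litter as a block, which called 8.88% of all genes, and 5 of the 10 had an unadjusted p under 0.05, beside 17.1% of all genes. The count fell from 4 to 2 when oral tissue library 3, tooth germ library 1 or the whole of litter 1 was left out. In each of these cases Ptch1 and Gli3 lost their calls, while Shh and Cdon remained called.

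**Figure D1:**
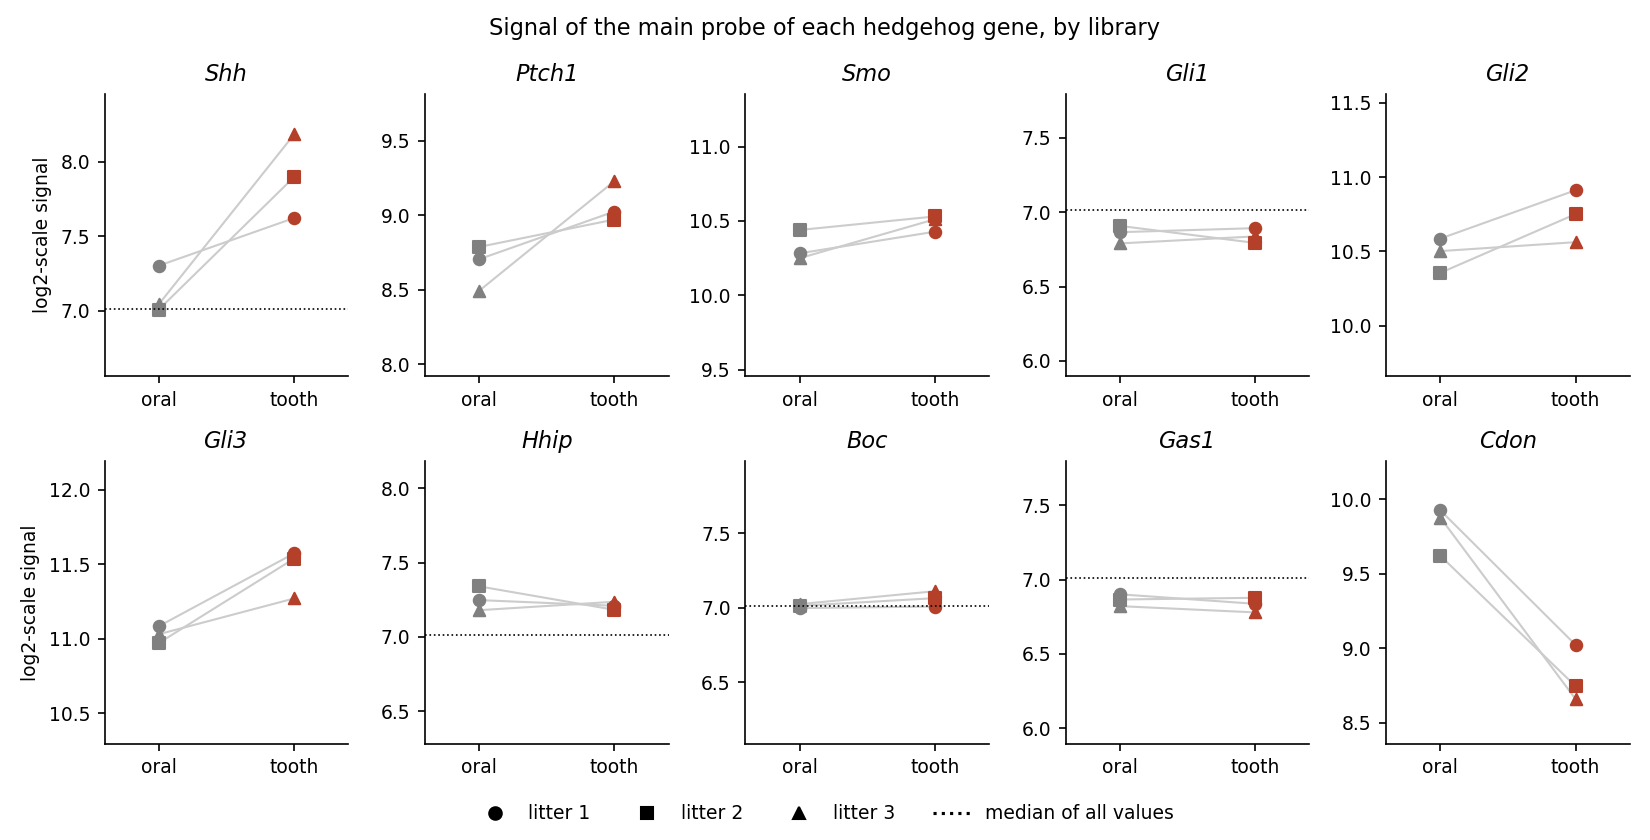
Log2-scale signal (vertical axis) of the main probe of each of the 10 genes in the 6 libraries, with titled oral tissue in grey and titled tooth germ in red. Symbols give the litter, lines join libraries of 1 litter, every panel spans the same height, and the dotted line is the median of all values (7.01) where it falls in the panel. The groups do not overlap for Shh, Ptch1, Gli3 and Cdon.

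The ligand Shh read 7.30, 7.01 and 7.04 in oral tissue libraries 1, 2 and 3 and 7.62, 7.90 and 8.18 in tooth germ libraries 1, 2 and 3 (this order is kept below), on the log2 scale of the main probe. All 3 tooth germ libraries lay above all 3 oral tissue libraries, and libraries 2 and 3 of oral tissue stood near the median of all values on the array (7.01). Groups that do not overlap were found for 4 of the 10 genes, the same 4 that were called, and for 23.1% of all genes. The log2 difference of Shh was 0.78 (SE 0.12, limma adjusted p = 0.0022). With oral tissue at so low a signal the change may be understated, so no fold is given. Within litters 1, 2 and 3 it was 0.32, 0.89 and 1.14, so litter 1, whose oral tissue library read highest, had the smallest difference. In whole-tissue RNA, more cells of a type and more RNA per cell cannot be told apart.

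The dimmer Shh probe gave the same direction. It read 7.04, 6.93 and 6.92 in the 3 oral tissue libraries and 7.11, 7.31 and 7.27 in the 3 tooth germ libraries, again without overlap. Its log2 difference was 0.26 (SE 0.055, limma adjusted p = 0.0167 over all 34885 probes). Shh was called in 20 of 20 alternative analyses, with log2 differences from 0.52 to 1.02 and limma adjusted p-values from 5.9e-04 to 0.042. The 20 include repeated quantile normalization and median centring of each array. Both leave arrays that are already quantile normalized almost unchanged, so they were no check on a call, here or in the counts of 20 below.

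Ptch1, which binds the ligand and is a transcriptional target of it, read 8.71, 8.79 and 8.49 in the 3 oral tissue libraries and 9.03, 8.97 and 9.23 in the 3 tooth germ libraries. The groups did not overlap, though oral tissue library 2 and tooth germ library 2 lay close together. The log2 difference was 0.41 (SE 0.099, limma adjusted p = 0.0295), or 1.33-fold if the deposited scale is a plain log2. Within litters 1, 2 and 3 it was 0.32, 0.18 and 0.74, so litter 3 held the largest difference of Ptch1, as it did of Shh. A second, dimmer Ptch1 probe (mean 7.27) had a log2 difference of 0.016 with a 95% interval of -0.11 to 0.15 and was not called.

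The call of Ptch1 was held in 11 of 20 alternatives. Without litter 3 its log2 difference was 0.25 (adjusted p = 0.218, limma), and without litter 1 it was 0.46 (adjusted p = 0.141, limma). Leaving out oral tissue library 1 or 3, or tooth germ library 1 or 3, also ended the call, with limma adjusted p-values of 0.0637, 0.119, 0.07 and 0.0975.

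Smo, the membrane protein that Ptch1 holds in check, had 4 probes, and none of them was called. The main probe read 10.28, 10.44 and 10.25 in the 3 oral tissue libraries and 10.43, 10.53 and 10.51 in the 3 tooth germ libraries. Oral tissue library 2 lay above tooth germ library 1, so the groups overlapped by a small margin. The log2 difference was 0.17 with a 95% interval of -0.014 to 0.35 (limma adjusted p = 0.339), and it was above 0 in each litter. The other Smo probes, with means of 8.67, 8.42 and 7.09, differed by 0.02, 0.087 and -0.02.

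The Gli factors bind DNA through shared zinc fingers; Gli1 acts as an activator, Gli2 mainly as an activator and Gli3 mainly as a repressor in most tissues. Gli3 read 11.08, 10.97 and 11.03 in the 3 oral tissue libraries and 11.57, 11.54 and 11.27 in the 3 tooth germ libraries. All 3 tooth germ libraries stood above the oral tissue libraries, and tooth germ library 3 stood nearest to them. The log2 difference was 0.43 (SE 0.091, limma adjusted p = 0.0153), or 1.35-fold on the same reading, and within litters 1, 2 and 3 it was 0.49, 0.57 and 0.24. A dimmer Gli3 probe (mean 7.39) had the same sign in each litter and did not overlap between groups, with a log2 difference of 0.15 (95% interval 0.032 to 0.26), but it was not called over all probes (limma adjusted p = 0.187).

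Gli3 was called in 13 of 20 alternatives. Without oral tissue library 2 or 3, or tooth germ library 1 or 2, the limma adjusted p was 0.0572, 0.0511, 0.0778 and 0.0617, with log2 differences from 0.38 to 0.43. Without litter 1 or litter 2 it was 0.146 in each case, at log2 differences of 0.40 and 0.36.

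Gli2 read 10.59, 10.36 and 10.50 in the 3 oral tissue libraries and 10.91, 10.75 and 10.56 in the 3 tooth germ libraries. Tooth germ library 3 lay below oral tissue library 1, so the groups overlapped. The log2 difference was 0.26 with a 95% interval of 0.038 to 0.48, which excluded 0, but the limma p did not pass after adjustment (unadjusted p = 0.0256, adjusted p = 0.199). With litter as a block the adjusted p of Gli2 was 0.0724 (limma). Within litters 1, 2 and 3 the difference was 0.33, 0.40 and 0.06, the smallest in litter 3, as for Gli3. Whether Gli2 and Gli3 differed from each other in size of change was not tested.

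Gli1, whose transcription follows pathway activity, stood at the low end of the table. It read 6.87, 6.91 and 6.79 in the 3 oral tissue libraries and 6.89, 6.79 and 6.84 in the 3 tooth germ libraries, below the median of all values (7.01) in every library. The groups overlapped fully, with a log2 difference of -0.013 and a 95% interval of -0.092 to 0.065. Gli1 had 1 probe, no measure of its background was used here, and the deposited scale can understate a change at such signals. A difference in Gli1 was not detectable with this probe.

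Hhip, a membrane-bound decoy that binds hedgehog ligands and is induced by the signal, read 7.25, 7.34 and 7.18 in the 3 oral tissue libraries and 7.21, 7.18 and 7.24 in the 3 tooth germ libraries. The values interleaved, and the log2 difference was -0.046 (95% interval -0.16 to 0.066, limma adjusted p = 0.727). Its only probe was also dim, with a mean of 7.23.

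Cdon, a cell-surface co-receptor of the immunoglobulin superfamily that also promotes the differentiation of muscle precursors, read 9.93, 9.62 and 9.88 in the 3 oral tissue libraries and 9.02, 8.74 and 8.66 in the 3 tooth germ libraries. The lowest oral tissue library lay well above the highest tooth germ library. Cdon fell by 1.00 on the log2 scale (SE 0.11, limma adjusted p = 2.2e-04), a 2.00-fold difference on the same reading. Within litters 1, 2 and 3 the difference was -0.91, -0.88 and -1.22. The call held in 20 of 20 alternatives, with limma adjusted p-values from 1.0e-05 to 0.0073. Only the mean of both Cdon probes, with a difference of -0.52, used more than the bright probe. The annotation assigns the bright probe to a cDNA clone and the other to a RefSeq transcript. The second Cdon probe had a mean of 6.93, below the median of all values, and a log2 difference of -0.039 (95% interval -0.11 to 0.033).

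The other co-receptors gave signals near the floor of the table. Boc, a relative of Cdon, read 7.00, 7.01 and 7.02 in the 3 oral tissue libraries and 7.01, 7.06 and 7.11 in the 3 tooth germ libraries, and its log2 difference was 0.05 (95% interval -0.032 to 0.13). Its second probe averaged 6.98 and differed by -0.015. Gas1, a membrane-anchored co-receptor, read 6.90, 6.87 and 6.82 against 6.84, 6.88 and 6.78, and differed by -0.031 on the log2 scale (95% interval -0.10 to 0.039). At these signals, as for Gli1, a change could be compressed, so the fall of Cdon cannot be set against the values of Boc and Gas1.

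**Figure D2:**
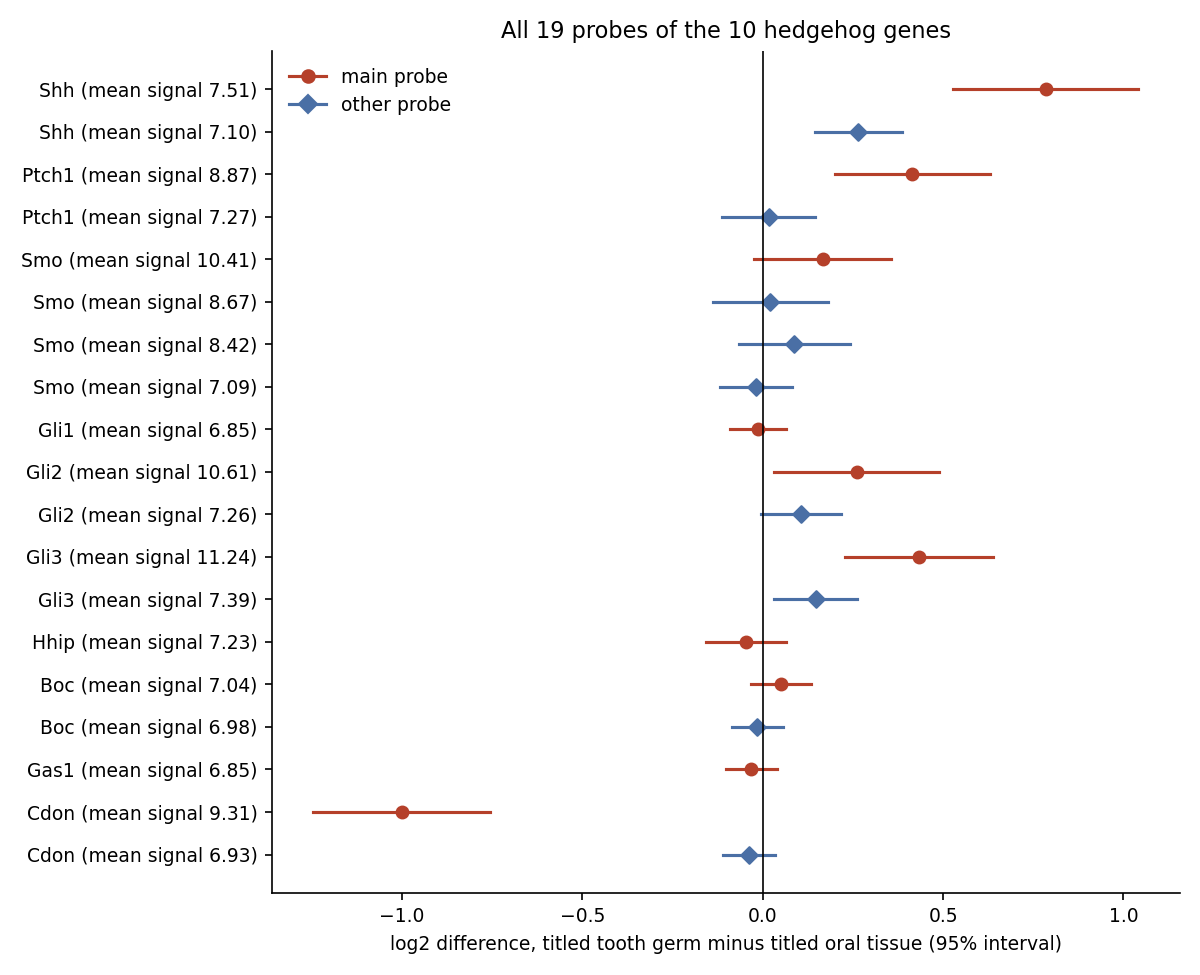
Log2 difference between titled tooth germ and titled oral tissue (horizontal axis) for all 19 probes of the 10 genes, with bars for the 95% interval of limma's fit over all 34885 probes, and the mean signal of each probe beside its gene. Main probes are red circles and other probes blue diamonds. Both Shh probes lie above 0 with their intervals, and of the 2 Cdon probes only the bright one lies apart from 0.

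Litters did not rank alike across the genes. Shh and Ptch1 had their largest difference in litter 3, and Gli3 and Gli2 had their smallest there. Of the 10 genes, 7 had the same sign in all 3 litters, beside 41.3% of all genes; 6 were positive in each and Cdon was negative in each. With 3 litters, no test of a difference between litters was made.

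Cell type markers moved with the same contrast. Their counts stand beside 2.39% of all genes called higher and 3.42% called lower. Of 15 measured markers of surface epithelium 9 were called higher and 1 lower (median log2 difference 0.43), and their mean level ran from 9.33 to 9.46 over the oral tissue libraries and from 9.81 to 9.90 over the tooth germ libraries. The mean of these markers differed by 0.48, 0.42 and 0.47 within litters 1, 2 and 3, beside 0.32, 0.89 and 1.14 for Shh. A mean over 15 genes varies less than a single gene, so the spread of the litters cannot be compared between them. Of 10 measured markers of dental epithelium 6 were called higher and 1 lower (median 0.38), and of 10 markers of dental mesenchyme 5 were called higher and 0 lower (median 0.43). The mean of the dental epithelium markers differed by 0.50, 0.58 and 0.47 within litters 1, 2 and 3. That of the dental mesenchyme markers differed by 0.96, 0.62 and 0.57. The part of epithelial or mesenchymal content in the values of Shh, Ptch1 and Gli3 was not tested.

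Skeletal muscle markers moved in the direction of Cdon. The counts of this paragraph also stand beside 2.39% of all genes called higher and 3.42% called lower. Of 13 measured 11 were called lower and 0 higher (median -1.82), and their mean level ran from 9.94 to 10.51 over the oral tissue libraries and from 8.71 to 8.86 over the tooth germ libraries. Within litters 1, 2 and 3 their mean differed by -1.65, -1.22 and -1.55, beside -0.91, -0.88 and -1.22 for Cdon. The part of muscle content in the value of Cdon was not tested. Of 8 markers of neurons, cells that can also make Shh, 3 were called lower and 0 higher; of 7 measured macrophage markers 5 were lower, of 6 endothelial markers 1 was lower, and of 4 measured Schwann cell markers 1 was lower. Among 7 cartilage and 5 measured osteoblast markers limma called 0, with 1 unadjusted p under 0.05 in each list and 0 called with litter as a block. Of the 5 measured osteoblast genes 4 had a mean above the median of all values, though oral tissue is labelled as without bone. Ibsp, a bone matrix gene, read 12.13, 13.35 and 11.62 in the oral tissue libraries and 12.70, 10.88 and 12.96 in the tooth germ libraries. Sp7, an osteoblast transcription factor, read 10.81, 11.63 and 10.40 against 11.67, 10.86 and 11.40. Bglap, of the same list, was dim, at 6.84, 6.94 and 6.87 against 7.04, 6.84 and 6.94. The mean of the osteoblast markers differed by 0.55, -0.97 and 0.71 within litters 1, 2 and 3, so litter 2 went the other way, and the part of bone content in the hedgehog values was not tested.

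**Figure D3:**
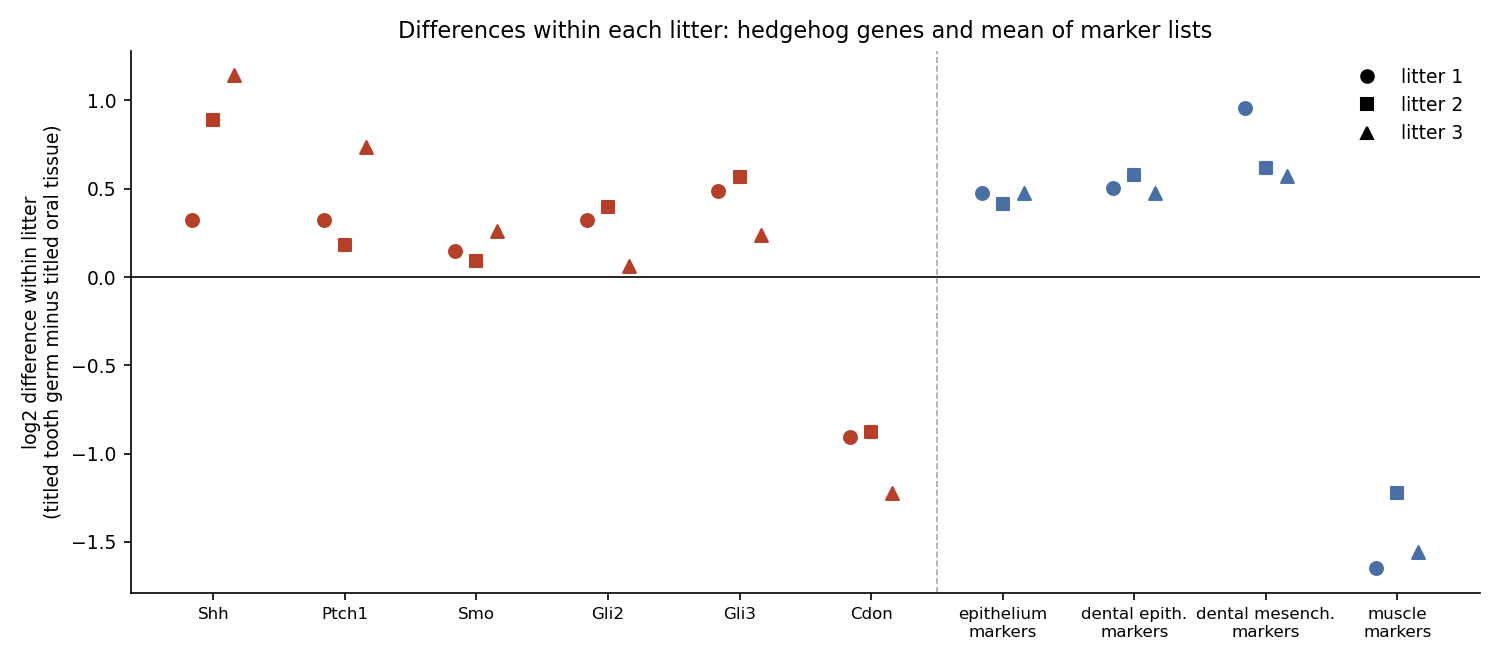
Log2 difference within each litter (vertical axis, titled tooth germ minus titled oral tissue) for the 6 hedgehog genes with the largest differences (red) and for the mean of 4 lists of cell type markers (blue). Symbols give the litter. Shh spans 0.32 to 1.14 and the mean of the epithelium markers 0.42 to 0.48. A mean over many genes varies less than 1 gene, so these spans are not alike in measure. Cdon and the mean of the muscle markers lie below 0 in all 3 litters.

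Genes whose signal followed a member most closely over the 6 libraries were ranked by the root mean square distance between values centred on each gene's own mean. For Shh, whose own values spread by 0.43 around their mean, the 5 nearest were Diras2, Ppp1r1a, Ptpru, Ly6g6e and Spint1, at distances of 0.10 to 0.14. Diras2, the nearest, differed by 0.56, 0.84 and 1.06 in litters 1, 2 and 3. For Ptch1 (spread 0.24) the nearest were Pkp3, Prr7, Sumo3, Smpdl3b and Limk2, at 0.058 to 0.078. For Cdon (spread 0.52) they were Stc1, Igfbp3, Nes, Srl and Igf2r, at 0.074 to 0.093, and Stc1 differed by -0.96, -0.75 and -1.26 within the litters. These distances describe the 6 libraries, which share the same tissues and litters. The genes were picked for closeness over these same libraries, so litter differences like those of the member follow from the choice.

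Outside the core, Disp1 and Dhh were lower and Lrp2 was higher. The machinery between Smo and the Gli factors gave no called gene. Among all genes 5.81% were called, so 0 calls in a list this short is near that share. Of 8 genes of other ligands and of ligand processing and release, 2 were called lower and 0 higher (median log2 difference -0.02). Of all genes 3.42% were called lower and 2.39% higher. Disp1, the transporter that releases lipid-modified ligand from the cells that make it, read 9.22, 9.15 and 9.09 in the 3 oral tissue libraries and 8.74, 8.68 and 8.76 in the 3 tooth germ libraries. The groups were well separated, and Disp1 fell by 0.43 on the log2 scale (SE 0.075, limma adjusted p = 0.0044), opposite to Shh. Dhh, a ligand of Schwann cells and gonads, was dim and fell by 0.20 (limma adjusted p = 0.0227). Ihh, the ligand of growth plate cartilage, differed by 0.035 (adjusted p = 0.853, limma). Scube3, a secreted factor that helps ligand release, differed by 0.22 and was not called, though with litter as a fixed block it was (limma adjusted p = 0.0451). With that block, and with the mean of all probes, 3 genes of the list were called in place of 2. The count of 2 fell to 0 without litter 1, and it was 1 without litter 2 or litter 3, without oral tissue library 1 or 3 and without tooth germ library 1 or 2.

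Of 4 measured genes of ligand binding at the cell surface, limma called 1, beside 5.81% of all genes. This was Lrp2, an endocytic receptor that can bind Shh. It differed by 0.16 (SE 0.037, limma adjusted p = 0.0261) at a dim probe with a mean of 7.05, and 2 dimmer Lrp2 probes differed by 0.0039 and -0.005. The list's median was -0.091. The call of Lrp2 was lost when any 1 litter was left out, and also without oral tissue library 1 or 2 or tooth germ library 1 or 3, leaving 0 called genes in this list. Among 15 measured genes that carry the signal from Smo to the Gli factors, such as Sufu and the protein kinase A subunits, limma called 0, with 1 unadjusted p under 0.05 and 0 called with litter as a block (median 0.0059). Stk36, a kinase related to the fly regulator fused, had the smallest p and differed by -0.20 (adjusted p = 0.128, limma), followed by Evc2, a ciliary partner of Smo, at 0.21 (adjusted p = 0.303, limma). Among 13 measured cilium genes limma called 0, with 0 unadjusted p under 0.05 and 0 called with litter as a block (median -0.02); Rpgrip1l and Bbs4, of the transition zone and the BBSome, differed by 0.12 and -0.16.

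Of 14 genes known in various tissues as targets of hedgehog signals, 3 were called higher, 2 lower and 9 were not called (median 0.013). Of all genes 2.39% were called higher and 3.42% lower. Foxf1, a forkhead factor induced in mesenchyme by hedgehog signals, read 7.50, 7.38 and 7.46 in the 3 oral tissue libraries and 9.15, 9.15 and 9.24 in the 3 tooth germ libraries, with litter differences of 1.65, 1.78 and 1.78. Its separation was wide beside that of Ptch1 and its litters were nearly equal, in contrast to Shh. Its relative Foxf2 was dim (mean 6.98) and differed by 0.15 (limma adjusted p = 0.0121). The D cyclins moved in opposite directions. Ccnd2 read 11.24, 11.54 and 11.14 against 11.78, 11.98 and 11.73 and rose by 0.52 (SE 0.11, limma adjusted p = 0.0141), with 2 of its 4 probes called, while Ccnd1 read 12.47, 12.34 and 12.32 against 11.94, 12.03 and 12.00 and fell by 0.38 (SE 0.071, limma adjusted p = 0.0066), with 2 of its 3 probes called. Foxc2, a dim forkhead gene, fell by 0.15 (limma adjusted p = 0.0184). The 5 calls of this list became 1 without litter 1, 2 without litter 3 or without oral tissue library 3, and 3 without litter 2 or without tooth germ library 2.

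**Figure D4:**
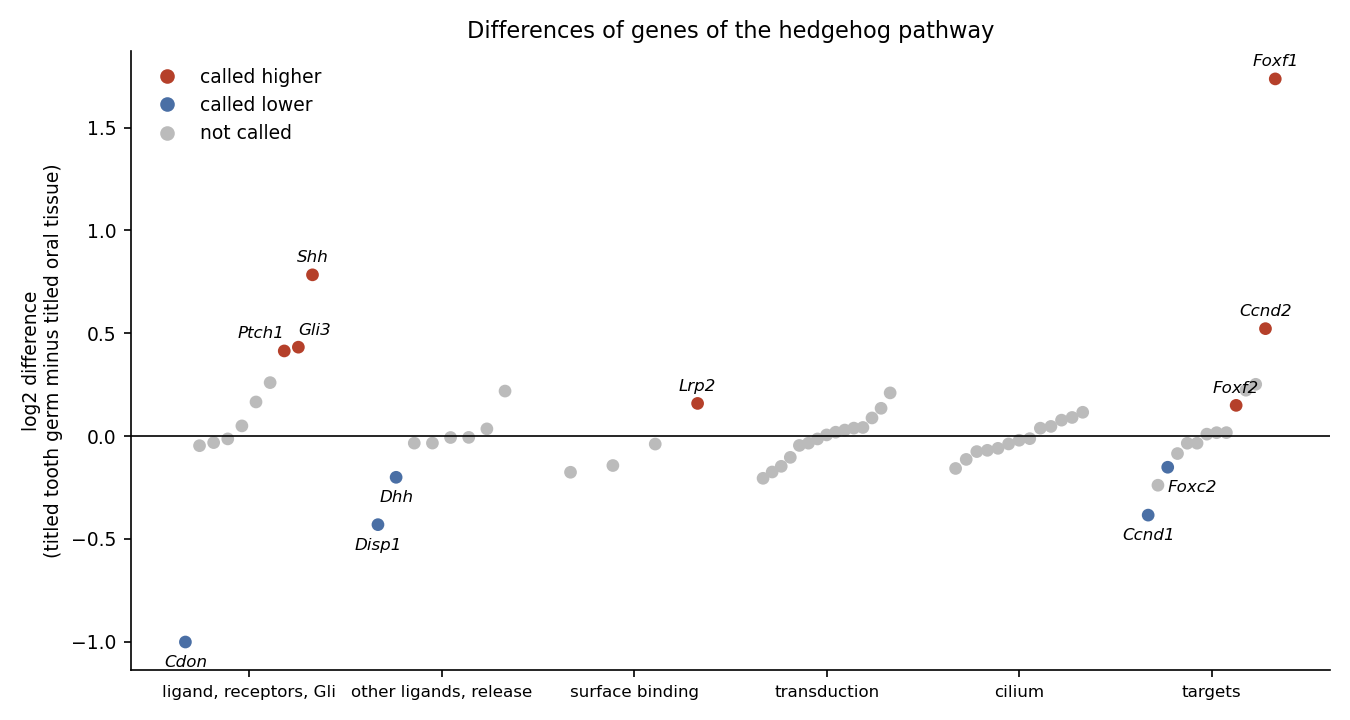
Log2 difference between titled tooth germ and titled oral tissue (vertical axis) for the core genes and for 5 lists of other hedgehog pathway genes, sorted within each list. Red and blue points were called higher and lower (limma adjusted p under 0.05) and are named; grey points were not called. The transduction and cilium lists lie between -0.20 and 0.21, and Foxf1 lies highest at 1.74.

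The promoters of the 2 called-higher members with an entry in the RefSeq table of GRCm38.p6 are shown for the bases before the annotated start, since Gli factors act through DNA. Each is 250 bases long and runs 5′ to 3′ on the gene's strand, with every CG dinucleotide in capitals. The Gli3 stretch is chr13:15463473-15463722 on the plus strand, at the gene's outermost start, and the Ptch1 stretch is chr13:63565736-63565985 on the minus strand, before a start that lies 7725 bases inside the outermost one.
Gli3: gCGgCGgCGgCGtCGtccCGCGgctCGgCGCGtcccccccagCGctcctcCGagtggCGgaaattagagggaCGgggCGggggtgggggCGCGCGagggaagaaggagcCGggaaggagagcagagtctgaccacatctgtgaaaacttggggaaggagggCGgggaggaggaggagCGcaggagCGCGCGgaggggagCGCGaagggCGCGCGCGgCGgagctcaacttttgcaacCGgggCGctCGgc
Ptch1: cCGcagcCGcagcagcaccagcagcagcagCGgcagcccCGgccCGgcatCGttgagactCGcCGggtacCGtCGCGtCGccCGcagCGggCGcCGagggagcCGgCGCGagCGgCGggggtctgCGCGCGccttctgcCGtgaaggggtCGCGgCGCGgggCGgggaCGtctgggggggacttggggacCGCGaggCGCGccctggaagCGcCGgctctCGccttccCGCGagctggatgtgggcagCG
The Gli3 stretch held 34 CG dinucleotides and the Ptch1 stretch 41, more than 96.5% and 98.9% of the 32851 promoters in the table, where the median was 6. Their GC contents were 72.8% and 78.4%. The Gli consensus GACCACCCA and its core CCACCCA were searched on both strands, and every match of the first also matches the second. Neither was found in the 250 bases of the 7 members with an entry (Ptch1, Smo, Gli2, Gli3, Hhip, Gas1 and Cdon), and they occurred in 0.225% and 8.11% of all promoters of this length. This says only that these letters are not in these windows. The Cdon window lies before a start 30548 bases inside the gene's outermost one, and the Gli2 window before a start 786 bases inside. The bases just before the outermost starts of Cdon, Gli2 and Ptch1 were thus not searched.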

How the data were processed

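The authors deposited a table of log2-scale signals for 45281 probes on 6 arrays, per the file headers. The submitters' processing notes name lumi 2.8.0; the choice between a log2 and a variance-stabilising transformation, and the background correction, are not given in the sources used here. Deposited values ran from 6.61 to 14.88 with a median of 7.01, and the sorted columns differed by at most 0.00083, so the arrays were already quantile normalized. Detection p-values were not used here. The groups were fitted in R 4.3.3 with limma 3.58.1 (lmFit, eBayes with trend, 4 residual degrees of freedom), brightest probe per gene, with Benjamini-Hochberg adjustment over 19057 genes. Levels are mean ± SD.

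The members and gene lists were chosen with earlier results of these data known, so no list was tested. Genes named beside the members were the called genes of each pathway list, or the 2 of smallest p where none was called, the 5 genes nearest to Shh, Ptch1 and Cdon (clone-named and predicted genes skipped), and the markers used to check the labels. Ihh, Scube3, Ibsp, Sp7 and Bglap were named after their values were seen. A gene with no probe of 1 symbol was not analysed here.

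Litters pair the libraries per the labels. Deviations from group means correlated at 0.413, 0.233 and 0.266 for same-numbered libraries over 9528 genes, and between -0.267 and -0.0724 otherwise. Deviations within a group sum to 0, so positive values for same-numbered libraries bring negative ones for the others on average. The negative values therefore add nothing to the positive ones. The fit was tested on simulated data. The planned alignment of proteins was not run.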

Additional observations from a re-analysis of the deposited data

How the results depend on the processing

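Over 20 alternatives, no called member changed sign, Shh and Cdon kept their calls throughout, and Smo, Gli1, Gli2, Hhip, Boc and Gas1 were called in none (Gli1 and Gas1 could not be fitted where dim genes were left out). With litter as a fixed replicate block 1693 genes were called in place of 1107, and the 4 called members were the same; the pairing changed no member's call. Repeated quantile normalization and median centring of each array called 1107 genes, 1107 of them shared. The arrays were already quantile normalized, so these settings could hardly differ from the main fit. With the mean of all probes the log2 difference of Ptch1 was 0.22 (adjusted p = 0.111, limma) and 0 surface genes were called. Without a variance trend Ptch1 kept its 0.41 at adjusted p = 0.0627 (limma), with 1 release gene and 0 surface genes called. At an adjusted p under 0.01, 601 genes, 2 members, 1 release gene, 0 surface genes and 2 targets were called, and Ptch1 (0.41) and Gli3 (0.43) were not. With dim genes left out 3 targets were called. The called targets Foxf2 (mean 6.976) and Foxc2 (mean 7.008) lay below the median of all values (7.012) and were themselves left out. Leaving out each library or litter in turn gave 549 to 1025 called genes, 2 to 3 called members, 0 to 2 release genes, 0 to 1 surface genes and 1 to 5 targets, with log2 differences of 0.25 to 0.53 for Ptch1 and 0.36 to 0.53 for Gli3. Apart from the fewer samples or genes fitted, the cause of these changes was not tested. Signals of Gli1, Gas1, Boc and Hhip near the median of all values limit what their probes can show.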
